A study of Homo sapiens with 4 samples.

Results

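The 7 genes described here encode proteins at the surface of prostate cells that are used, or have been proposed, as targets for antibodies, radioligands or engineered T cells: FOLH1, STEAP1, STEAP2, STEAP4, PSCA, CD276 and HPN. They were taken by name from the 60675 genes counted. The rule that selects them uses no measured value, although the names were put together with earlier results of these data known. All 7 were among the 17600 genes that had enough reads to be tested. RNA was measured in 4 libraries from LNCaP cells, an established androgen-responsive line derived from a prostate cancer metastasis. Every culture received 1 nM R1881, a synthetic androgen, for 72 h, in phenol red-free medium whose serum had been depleted of hormones. In 2 libraries the androgen was given with vehicle, and in the other 2 it was given with 50 µM CPI-455, a small-molecule inhibitor of the KDM5 histone demethylases, dissolved in DMSO. The comparison therefore asks how transcripts of surface target genes differ with CPI-455 while androgen is present. Whether a difference came through the KDM5 enzymes was not tested. No library without R1881 was analysed here, so the values do not show how far any of the genes responds to androgen. A single cell line stands behind all values.

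KDM5 enzymes remove methyl groups from lysine 4 of histone H3, a mark found at active promoters. FOLH1 encodes prostate-specific membrane antigen (PSMA), a carboxypeptidase that releases glutamate from folate conjugates and from a brain dipeptide, and it is the target of PSMA imaging and radioligand therapy. The STEAP proteins span the membrane several times. STEAP2 and STEAP4 reduce iron and copper ions, whereas STEAP1 lacks the domain that binds the electron donor and is targeted with antibodies. PSCA is a small protein of the LY6 family held in the membrane by a lipid anchor. CD276, also called B7-H3, belongs to the B7 family of immune checkpoint proteins, and HPN encodes hepsin, a membrane-bound serine protease often abundant in prostate cancer.

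The genes lie on 5 chromosomes of GRCh38, with coordinates as the count files give them. STEAP1 (ENSG00000164647, chr7:90154375-90164829, plus strand) and STEAP2 (ENSG00000157214, chr7:90167590-90238137, plus strand) are direct neighbours, 2.76 kb apart, and STEAP4 (ENSG00000127954, chr7:88270892-88306891, minus strand) lies 1847 kb away on the same chromosome. HPN (ENSG00000105707) lies at chr19:35040506-35066571 on the plus strand. RefSeq windows of 250 bases before an annotated transcription start were found for 5 of the genes. These starts come from another annotation than the one used for counting. The windows of STEAP2 and HPN lie inside the gene spans given above, not before them, and the STEAP1 window lies partly inside its span. The gap of 2.76 kb is that between the counted spans. The neighbours STEAP1 and STEAP2 are shown because their transcripts differed in the size of their decrease, STEAP4 because it had no reads with CPI-455, and HPN because its difference did not pass the test. Each sequence is written 5′ to 3′ on the strand of the gene, in GRCh38.p14, and capitals mark matches to the motifs listed after the sequences.
STEAP1, chr7:90154219-90154468, plus strand: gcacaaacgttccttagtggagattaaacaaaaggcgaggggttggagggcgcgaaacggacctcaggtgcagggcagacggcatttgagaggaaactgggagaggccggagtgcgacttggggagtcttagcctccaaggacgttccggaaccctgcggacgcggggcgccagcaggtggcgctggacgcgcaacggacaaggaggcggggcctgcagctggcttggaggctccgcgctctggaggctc
STEAP2, chr7:90211490-90211739, plus strand: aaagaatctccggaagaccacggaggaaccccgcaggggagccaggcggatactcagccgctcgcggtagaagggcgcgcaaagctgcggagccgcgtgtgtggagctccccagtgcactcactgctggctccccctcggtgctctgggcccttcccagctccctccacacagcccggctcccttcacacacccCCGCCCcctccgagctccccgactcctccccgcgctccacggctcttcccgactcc
STEAP4, chr7:88306895-88307144, minus strand: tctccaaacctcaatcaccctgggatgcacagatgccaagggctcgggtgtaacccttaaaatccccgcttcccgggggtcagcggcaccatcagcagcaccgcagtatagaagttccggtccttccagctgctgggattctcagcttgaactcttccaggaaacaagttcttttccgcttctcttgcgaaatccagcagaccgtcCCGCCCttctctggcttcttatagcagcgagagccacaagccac
HPN, chr19:35041471-35041720, plus strand: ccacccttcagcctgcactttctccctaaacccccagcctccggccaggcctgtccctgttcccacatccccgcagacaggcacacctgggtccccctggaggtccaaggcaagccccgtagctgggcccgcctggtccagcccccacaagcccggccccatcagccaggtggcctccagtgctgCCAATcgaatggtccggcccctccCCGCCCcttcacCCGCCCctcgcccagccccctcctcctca

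The windows were searched on both strands for the core of the androgen response element, spelled AGAACA. They were also searched for the GC box, spelled GGGCGG, for the CCAAT box, for the TATA box, spelled TATAAA, and for a forkhead motif, spelled TGTTTAC. None of these letters was found in the STEAP1 window. The STEAP2 and STEAP4 windows shown each held 1 GC box, 56 and 44 bases before the start respectively, and the HPN window held 2 GC boxes and 1 CCAAT box. Across the 35116 windows in the table, 42.6% held a GC box, 32.0% a CCAAT box, 12.4% the AGAACA core, 10.7% a TATA box and 2.98% the forkhead motif. No AGAACA core was found in any of the 7 windows of the 5 genes, which says only that these letters were not in the windows. The bases were GC-rich in the windows of STEAP1 (64.4%), STEAP2 (69.6%), STEAP4 (55.6%) and HPN (70.4%). The window of a 2nd annotated start of STEAP2, chr7:90213570-90213819, was AT-rich (32.8% GC) with 2 CCAAT boxes, 1 TATA box and 1 forkhead motif, so the annotated starts of this gene differed in composition.

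The vehicle libraries were deeper than the CPI-455 libraries. They held 19623553 and 20690819 counted fragments, against 9522920 and 5401588 with CPI-455, so that 3 counts corresponded to 0.137 to 0.142 CPM (counts scaled to a common library size) in the former and to 0.337 to 0.593 CPM in the latter. The nuclear RNA MALAT1 took 0.0884 to 0.114% of fragments under vehicle and 4.95 to 6.49% with CPI-455, and the mitochondrial share was 1.91 to 2.43% and 0.967 to 1.24%. Their part in the results below was not tested. Of the luminal prostate markers KLK3, HOXB13, KRT8 and KRT18, all 4 were tested and 3 were called lower, with a summed level of 551 to 591 CPM in vehicle libraries and 200.3 to 245 CPM with CPI-455. Markers of basal, of endothelial and of white blood cells each summed, list by list, to at most 1.23 CPM in any library, with KRT5 at 0 in all 4. Stromal markers summed to 16.9 to 21.7 CPM under vehicle and 16.2 to 18.2 CPM with CPI-455, and 1 of them, COL1A1, was called higher. Neuroendocrine markers summed to 24.1 to 26.4 CPM and 29.1 to 41.1 CPM, with CHGA called lower.

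Of the 7 surface target genes, 5 were lower with CPI-455 and none was higher: FOLH1, STEAP2, STEAP4, CD276 and STEAP1. A gene was called where the Benjamini-Hochberg adjusted p of the edgeR quasi-likelihood test was under 0.05 and the change was at least 2-fold. Among all 17600 genes tested, 21.3% were called lower and 21.0% higher, and among protein-coding genes 24.4% and 15.6%. The median log2 fold change of the 7 genes was -1.72, beside -0.04 over all genes tested and -0.21 over coding genes. Log2 fold changes are CPI-455 over vehicle throughout, so negative values are lower with CPI-455. Each called gene had both CPI-455 libraries below both vehicle libraries, a pattern that 42.8% of tested genes showed, whereas PSCA had both above, as did 39.1%. STEAP4 passed the filter on counts through its vehicle libraries alone, so it could only have been lower. In either direction, 42.4% of tested genes were called. In bulk RNA, less RNA per cell and fewer cells of a kind cannot be told apart, and the tests measure the spread between the sequenced samples, which the study's methods call biological replicates.

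**Figure D1:**
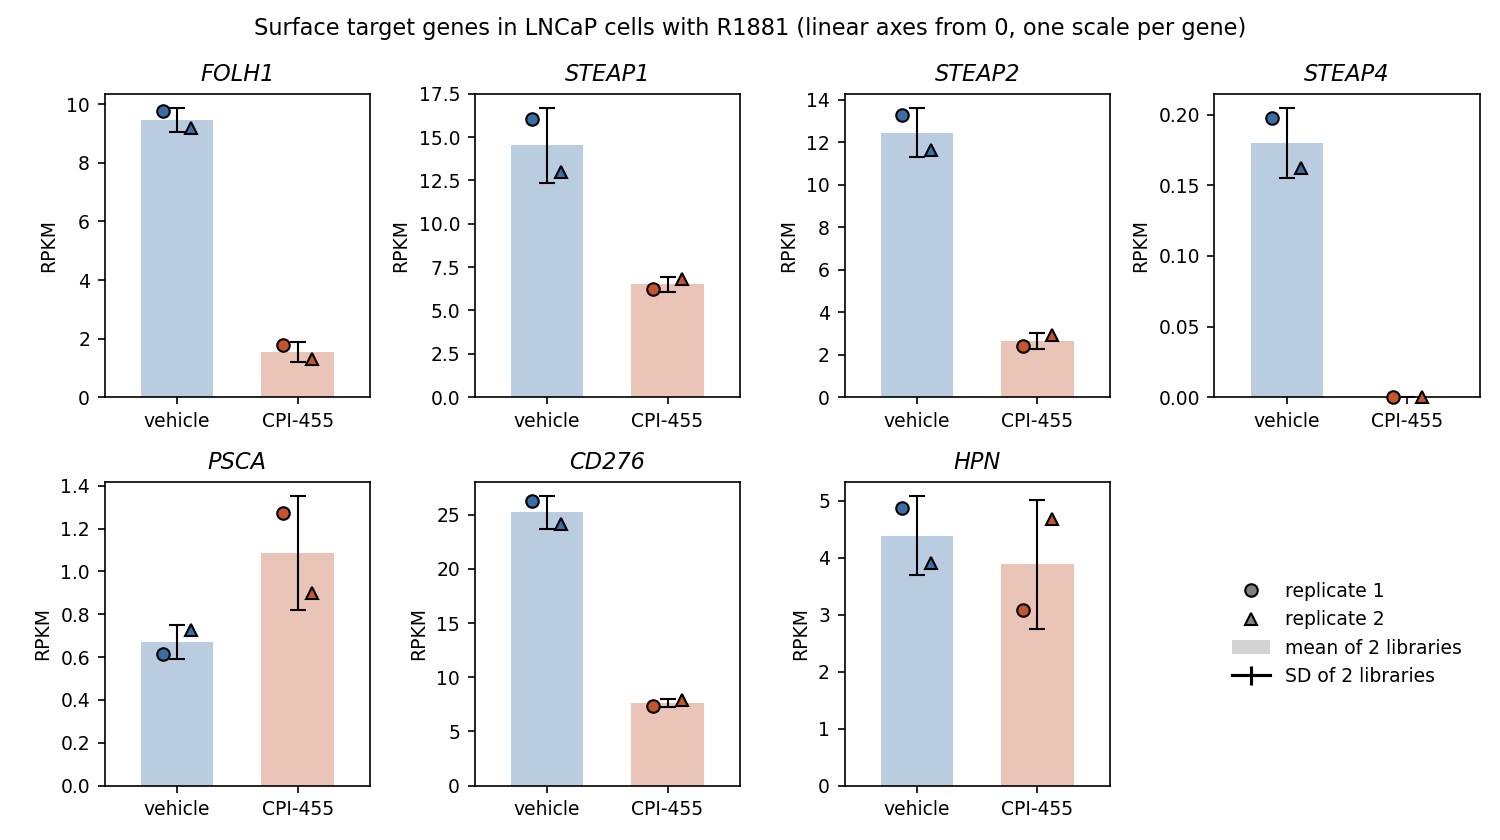
Levels of the 7 surface target genes in RPKM, fragments scaled to exon length and library size (vertical axis of each panel, starting at 0) in LNCaP cells given R1881 with vehicle or with CPI-455; bars are means of 2 libraries, lines their SD, and symbols the 2 replicates. FOLH1, STEAP1, STEAP2, STEAP4 and CD276 are lower in both CPI-455 libraries, PSCA is higher in both, and HPN overlaps.

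FOLH1 (ENSG00000086205, chr11:49146635-49208670, minus strand), the gene of PSMA, had 790 and 769 fragments under vehicle and 61 and 25 with CPI-455. On the normalised scale these were 37.3 and 35.1 CPM under vehicle and 6.84 and 4.95 CPM with CPI-455. The groups did not overlap, and the difference was many times the spread within either group. The mean fell from 36.2 ± 1.55 to 5.89 ± 1.34 CPM (SD, n = 2 in each group), which edgeR fitted as a log2 fold change of -2.58 (SE 0.22, 95% interval -3.07 to -2.09, Benjamini-Hochberg adjusted p = 1.01e-05), 5.98-fold lower. Only 4.23% of the genes tested fell as far. FOLH1 shared 8.72% of its 100-base windows of sequence with FOLH1B, a near copy for which 0, 1, 0 and 0 fragments were counted in the vehicle and CPI-455 libraries, and fragments that map to both were left out of the deposited counts.

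STEAP2, a metalloreductase, had 2451 and 2220 fragments under vehicle and 186 and 128 with CPI-455. Its normalised level was 116 and 101 CPM under vehicle and 20.9 and 25.3 CPM with CPI-455. Both CPI-455 libraries were far below both vehicle libraries. The log2 fold change was -2.25 (SE 0.16, 95% interval -2.60 to -1.90, edgeR adjusted p = 3.40e-06), a decrease of 4.75-fold that 6.11% of tested genes reached or exceeded. STEAP1, its neighbour, had 552 and 462 fragments under vehicle and 90 and 56 with CPI-455, or 26.1 and 21.1 CPM against 10.1 and 11.1 CPM. These groups were also apart, though by less. The log2 fold change was -1.16 (SE 0.22, 95% interval -1.65 to -0.67, edgeR adjusted p = 0.00129), 2.24-fold lower, and 20.4% of tested genes fell as far, so the decrease of STEAP1 was close to the limit of 2-fold. When the test required a change of over 2-fold itself (edgeR glmTreat), STEAP1 was not called (adjusted p = 0.237). STEAP1 shares 8.70% of its 100-base windows with STEAP1B, whereas STEAP2 shares none with STEAP1 or STEAP3.

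STEAP4, another metalloreductase, had 47 and 40 fragments under vehicle and 0 and 0 with CPI-455. The vehicle levels were 2.22 and 1.83 CPM. At those levels the CPI-455 libraries would hold 28.3 fragments together. STEAP4 was therefore at least 9.42-fold lower, taking 3 fragments over both CPI-455 libraries together as the floor (adjusted p = 0.00202, edgeR quasi-likelihood test). Because STEAP4 passed the filter on counts through its vehicle libraries alone, its direction was fixed in advance. The p is therefore no separate support for a decrease. The floor covers counting error only. Of its exon bases, 6.95% lie opposite a transcript on the other strand (ENSG00000228113). Counting was without strand and left out reads that map to several genes, so reads on these shared bases were not counted.

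CD276 (ENSG00000103855, chr15:73683966-73714518, plus strand), the immune checkpoint gene, had the highest level of the 7 genes in RPKM, with 3079 and 2930 fragments under vehicle and 365 and 222 with CPI-455. Its levels were 145 and 134 CPM under vehicle and 40.9 and 43.9 CPM with CPI-455, so the replicates lay close together and the groups far apart. The log2 fold change was -1.72 (SE 0.13, 95% interval -2.01 to -1.44, edgeR adjusted p = 4.77e-06), 3.30-fold lower. A decrease of that size was reached by 11.0% of the genes tested.

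HPN, the gene of the protease hepsin, had 349 and 289 fragments under vehicle and 93 and 80 with CPI-455. On the normalised scale the vehicle libraries were at 16.5 and 13.2 CPM and the CPI-455 libraries at 10.4 and 15.8 CPM, so the groups overlapped. The log2 fold change of -0.20 (SE 0.26, edgeR adjusted p = 0.523) had a 95% interval of -0.80 to 0.39. In this fit the interval did not reach a decrease of 2-fold, but it rests on 2 libraries per group and holds for this fit only. Without CPI-455 replicate 1 the log2 fold change was 0.07 and without CPI-455 replicate 2 it was -0.55, so the sign of the HPN difference rested on which CPI-455 library was kept. Antisense HPN-AS1 overlaps 10.3% of the HPN exon bases. PSCA (ENSG00000167653, chr8:142670308-142682724, plus strand), the LY6 family member, had 23 and 28 fragments under vehicle and 20 and 8 with CPI-455, or 1.09 and 1.28 CPM against 2.24 and 1.58 CPM. Both CPI-455 libraries were above both vehicle libraries. The log2 fold change of 0.72 (SE 0.59, 95% interval -0.61 to 2.04) did not pass the test (edgeR adjusted p = 0.314). The interval includes an increase of 2-fold, so at these counts such an increase could not be told from no change. The exons of PSCA overlap 20.9% with the antisense gene JRK, which itself was not called (log2 fold change -0.25, adjusted p = 0.149).

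**Figure D2:**
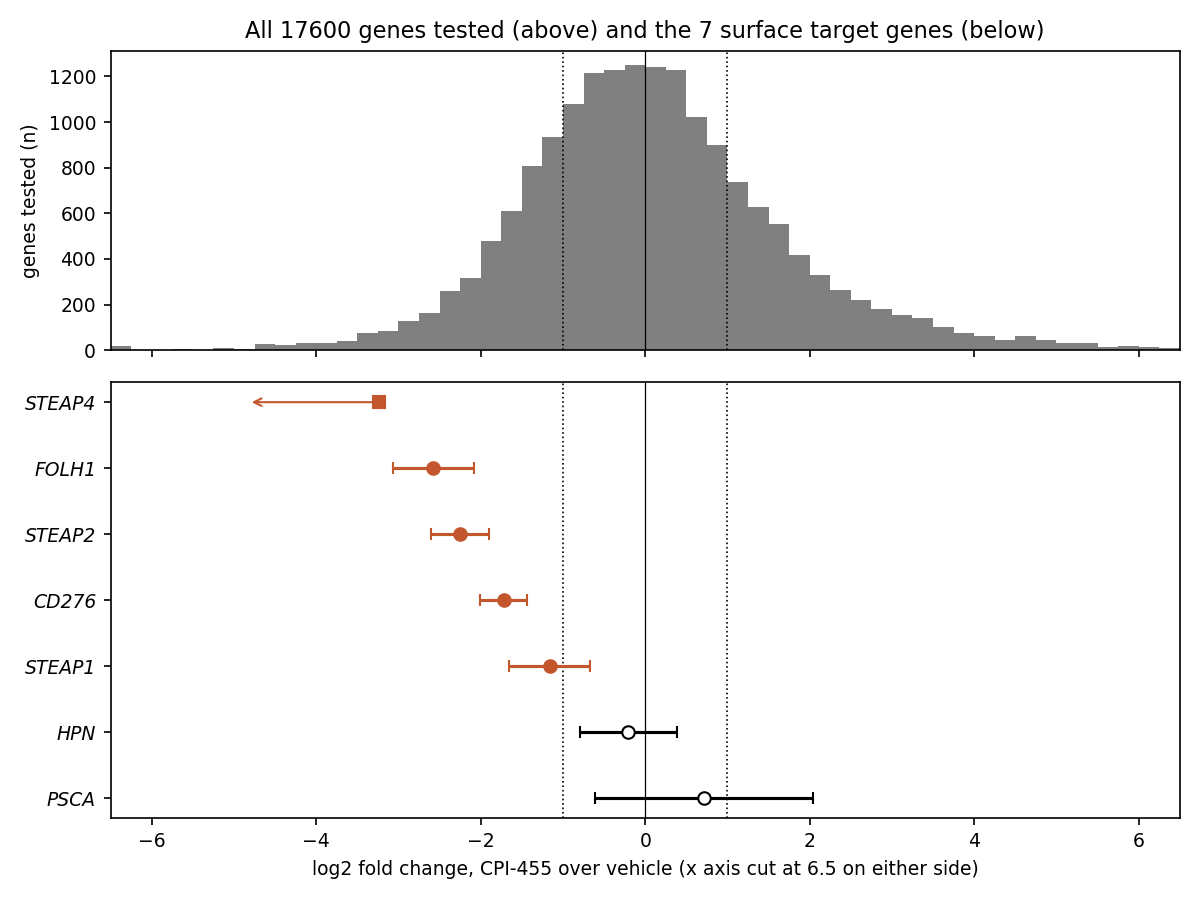
Log2 fold change, CPI-455 over vehicle (horizontal axis), of the 7 surface target genes with the 95% interval from edgeR (lower panel), under a histogram of all 17600 genes tested; dotted lines mark 2-fold. FOLH1, STEAP2, CD276 and STEAP1 lie beyond the lower line, which the interval of STEAP1 crosses, STEAP4 is drawn at its bound of 9.42-fold, and the intervals of HPN and PSCA include 0.

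Levels of different genes can be compared only per length, so the following values are RPKM, with fragments divided by exon length and scaled library size. The exon length includes bases shared with another gene, where reads were not counted. These were 20.9% for PSCA, 10.3% for HPN and 6.95% for STEAP4, so their RPKM may be too low. No correction was made for this. With vehicle the order was CD276 (25.2 ± 1.48 RPKM, SD, n = 2), STEAP1 (14.5 ± 2.16), STEAP2 (12.5 ± 1.16), FOLH1 (9.47 ± 0.404), HPN (4.39 ± 0.687), PSCA (0.671 ± 0.0773) and STEAP4 (0.180 ± 0.0247). STEAP1 and STEAP2 overlapped between libraries, and the gap between their means was 2.06 RPKM, under the SD of STEAP1. With CPI-455 the order was CD276 (7.66 ± 0.379), STEAP1 (6.52 ± 0.427), HPN (3.88 ± 1.13), STEAP2 (2.65 ± 0.361), FOLH1 (1.54 ± 0.351), PSCA (1.09 ± 0.265) and STEAP4 (0 in both). In RPKM, HPN thus moved from below STEAP2 and FOLH1 to above them, although its own level did not pass the test. The difference in change between HPN and STEAP2 was smaller when a trend with gene length and GC content was taken out. The log2 fold changes were then -1.72 for STEAP2 and -0.39 for HPN. Whether HPN still passes STEAP2 in that setting was not tested. The gap of HPN to STEAP2 with CPI-455 was 1.23 RPKM, only slightly over the SD of HPN, and that of FOLH1 to PSCA was 0.456 RPKM against an SD of 0.351. Among coding genes tested, 87.6% were below CD276 under vehicle and 62.5% with CPI-455. For FOLH1 these shares were 63.9% and 25.7%, and for STEAP2 71.8% and 35.8%, whereas HPN kept nearly the same rank at 42.3% and 44.5%.

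Together the 7 genes accounted for 7291 and 6738 fragments under vehicle and 815 and 519 with CPI-455. As CPM of all fragments counted these were 372 (95% Wilson interval 363 to 380) and 326 (318 to 334) under vehicle, and 85.6 (79.9 to 91.7) and 96.1 (88.2 to 105) with CPI-455. The intervals cover counting error only. CD276 made up 42.9% ± 0.887 of this sum under vehicle and 43.8% ± 1.42 with CPI-455 (SD, n = 2). STEAP2 went from 33.3% ± 0.473 to 23.7% ± 1.30 and FOLH1 from 11.1% ± 0.408 to 6.15% ± 1.89. The share of HPN was 4.54% ± 0.352 and 13.4% ± 2.83, and that of STEAP1 7.21% ± 0.505 and 10.9% ± 0.179. The shares of CD276 differed by less than the larger SD, while STEAP2 and FOLH1 took smaller shares and HPN and STEAP1 larger ones.

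**Figure D3:**
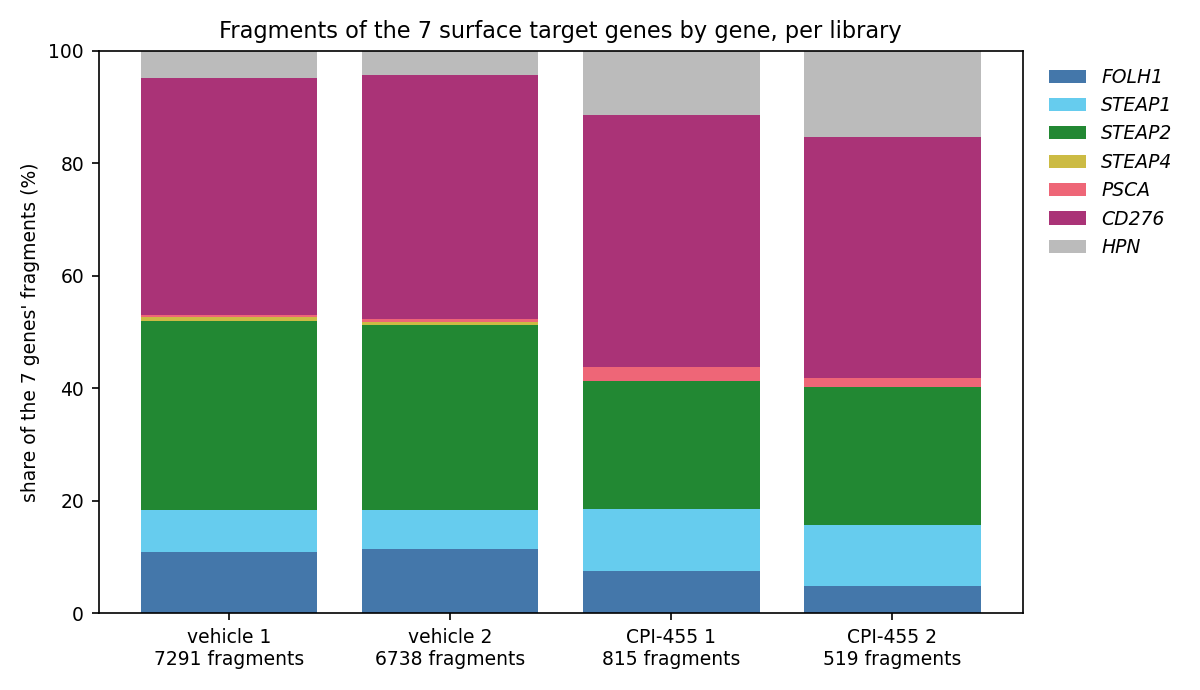
Share of each of the 7 surface target genes, in percent of the fragments counted for all 7 (vertical axis), in each of the 4 libraries. CD276 holds 42.2 to 44.8% in every library, STEAP2 32.9 to 33.6% under vehicle and 22.8 to 24.7% with CPI-455.

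A ratio of 2 genes within a library does not depend on the scaling of libraries. The ratio of STEAP2 to STEAP1 fragments was 4.44 (95% interval 4.05 to 4.87) and 4.81 (4.35 to 5.31) under vehicle, and 2.07 (1.61 to 2.66) and 2.29 (1.67 to 3.12) with CPI-455. The counting intervals of the groups did not overlap, and on the mean ratios STEAP2 was 2.12-fold further down than STEAP1. This gap shrank to 1.39-fold when a trend of the fold change with gene length and GC content was taken out, and was between 2.02 and 2.23-fold in the other settings. The ratio of HPN to FOLH1 was 0.442 and 0.376 under vehicle and 1.52 and 3.20 with CPI-455, which on the mean ratios was 5.78-fold higher. This value rested on which CPI-455 library was kept, being 3.73-fold without CPI-455 replicate 2 and 7.83-fold without CPI-455 replicate 1. In the edgeR fit the gap was 5.19-fold, and 3.61-fold with the length and GC trend taken out. HPN to CD276 was 0.113 and 0.0986 under vehicle and 0.255 and 0.360 with CPI-455. FOLH1 to CD276 was 0.257 and 0.262 against 0.167 and 0.113, and STEAP2 to CD276 0.796 and 0.758 against 0.510 and 0.577. In all 6 ratios computed, which included STEAP1 to CD276 (0.179 and 0.158 against 0.247 and 0.252), the groups did not overlap. The ratios share genes, and how many gene pairs in general show no overlap was not computed. Of single genes tested, 42.8% had both CPI-455 libraries below both vehicle libraries and 39.1% had both above. Nothing is therefore read from the 6 ratios not overlapping. The exact permutation test (2-sided) gave p = 0.333 for each ratio, before and after Benjamini-Hochberg adjustment over the 6, which is the smallest p that 2 libraries against 2 allow.

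Other genes of the same families and uses were described from 6 lists, which hold 96 distinct genes, 64 of them tested. Of those 64 genes, 21 were called lower, 10 higher and 33 neither, and their median was -0.66 on the log2 scale. The counts of this and of each list stand beside 21.3% lower and 21.0% higher over all genes tested, and 24.4% and 15.6% over coding genes. With so few genes a list, nothing particular to a list is read from its counts. Among 32 other genes encoding surface targets of antibodies or T cells, 25 were tested, of which 11 were lower, 1 was higher and 13 were not called, and the median was -1.09. OR51E1, 1 of the 11, had 19 and 19 fragments under vehicle and 0 and 0 with CPI-455, so it passed the filter through vehicle alone and could only be lower. The lower genes included ALCAM, an adhesion molecule, with 2090 and 2159 fragments under vehicle and 305 and 184 with CPI-455 (log2 fold change -1.49, SE 0.13, edgeR adjusted p = 1.21e-05). SLC39A6, a zinc transporter, was also lower (-1.44, SE 0.12, edgeR adjusted p = 1.01e-05), as was ROR1, a receptor-like kinase (-1.65, SE 0.28, edgeR adjusted p = 7.74e-04). The one higher gene was MUC1, a mucin (1.63, SE 0.56, edgeR adjusted p = 0.0299), named here after its values were seen, as were the other genes outside the rule for naming. EPCAM, an epithelial adhesion molecule, was at 86 and 77 fragments under vehicle and 28 and 34 with CPI-455 (0.33, adjusted p = 0.539).

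Of 14 B7 and butyrophilin genes, 8 were tested, 4 were higher, 1 was lower and 3 were not called, with a median of 1.05. The 4 higher genes are all butyrophilins that lie together on chromosome 6, between 26365159 and 26453415, so they are not separate evidence on the family of CD276. Of the 3 tested genes that are no butyrophilins, NCR3LG1 was lower, and ICOSLG (log2 fold change -0.10, adjusted p = 0.937) and VSIR (-1.22, adjusted p = 0.379) were not called. Butyrophilins regulate T cells, and the BTN3A proteins take part in the recognition of phosphate metabolites by them. BTN3A2 rose from 78 and 93 fragments under vehicle to 667 and 391 with CPI-455, in spite of the smaller libraries (log2 fold change 4.26, SE 0.17, edgeR adjusted p = 5.83e-07). BTN3A3 (4.14, SE 0.21), BTN2A2 (1.48, SE 0.12) and BTN3A1 (1.29, SE 0.27) were higher too, with edgeR adjusted p of 7.88e-07, 8.04e-06 and 0.00255. The 3 BTN3A genes are close copies whose counts may be split by the mapping, so their separate values are uncertain. NCR3LG1, the gene of the natural killer cell ligand B7-H6, fell from 2415 and 2984 fragments to 120 and 69 (-3.21, SE 0.16, edgeR adjusted p = 7.88e-07). CD274, the gene of PD-L1, had 8 and 8 fragments under vehicle and 0 and 0 with CPI-455 and was not tested.

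Of 4 STEAP and metalloreductase relatives tested, 1 was lower. That gene was FRRS1, a ferric reductase (-2.15, SE 0.36, edgeR adjusted p = 6.95e-04), named after its values were seen. STEAP3, the endosomal metalloreductase, was at 813 and 766 fragments under vehicle and 259 and 132 with CPI-455 (-0.41, adjusted p = 0.0501), and STEAP1B, the near copy of STEAP1, at 26 and 43 against 14 and 0 (-0.81, adjusted p = 0.462). Among 10 tested relatives of FOLH1 and folate genes, 2 were lower, 1 was higher and 7 were not called, with a median of -0.37. NAALADL2 was among the lower (-2.67, SE 0.35, edgeR adjusted p = 1.43e-04), and NAALADL1, a peptidase relative named after its values were seen, was higher (3.70, SE 0.70, edgeR adjusted p = 0.00134). NAALAD2, a close peptidase relative, was at 102 and 100 fragments under vehicle and 49 and 25 with CPI-455 (0.16, adjusted p = 0.692).

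The LY6 and uPAR family, to which PSCA belongs, held 8 tested genes, of which 3 were lower, 1 was higher and 4 were not called (median -0.84). CD59, which protects cells from complement, was lower (-1.70, SE 0.14, edgeR adjusted p = 7.16e-06), and PLAUR, the urokinase receptor, was higher (2.41, SE 0.20, edgeR adjusted p = 8.42e-06). The other lower genes were LYPD3 and LYPD6, and LYPD3, with no fragment in the CPI-455 libraries, passed the filter through vehicle alone and could only be lower. LY6E was at 977 and 910 fragments under vehicle and 614 and 266 with CPI-455 (0.48, adjusted p = 0.0269), under the limit of 2-fold. Among 10 tested surface serine proteases and inhibitors, the relatives of HPN, 3 were lower, 3 higher and 4 not called, with a median of 0.18. SPINT1, an inhibitor of hepsin, was lower at 269 and 217 fragments under vehicle and 24 and 16 with CPI-455 (-1.97, SE 0.32, edgeR adjusted p = 5.61e-04), as were PRSS8 and ST14, both membrane-associated proteases. MST1, the gene of a ligand that hepsin activates, was higher (1.64, SE 0.23, edgeR adjusted p = 2.17e-04), with TMPRSS5 and TMPRSS13. SPINT2, another hepsin inhibitor, was at 675 and 646 against 157 and 102 (-0.71, adjusted p = 0.00649). TMPRSS2, an androgen-regulated membrane protease, was at 1809 and 1720 fragments under vehicle and 439 and 278 with CPI-455 (-0.66, adjusted p = 0.00206), under the limit of 2-fold.

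**Figure D4:**
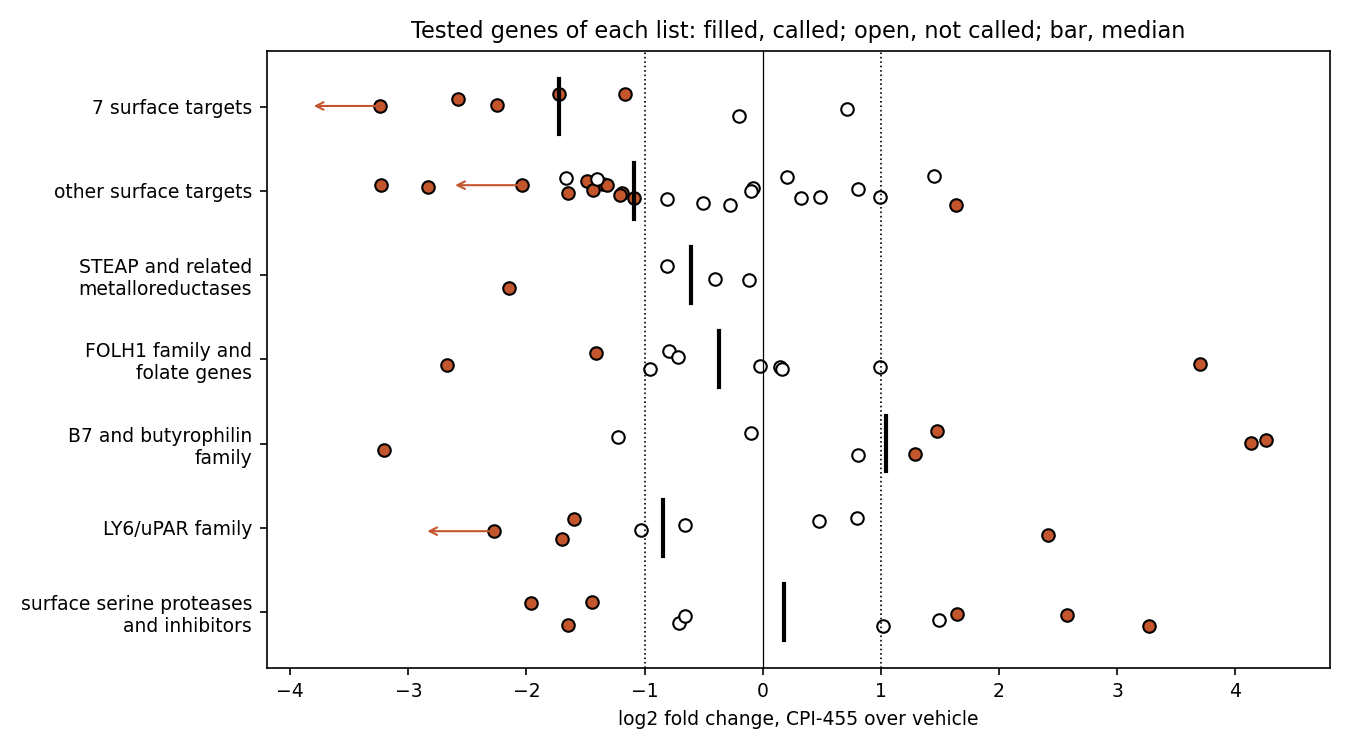
Log2 fold change, CPI-455 over vehicle (horizontal axis), of each tested gene of the 7 surface targets and of the 6 related lists; filled circles are called genes, open circles genes not called, black bars medians, and dotted lines 2-fold. Arrows mark genes with no fragment in the CPI-455 libraries, drawn at the bound that 3 fragments give.

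Within 100 kb of the 7 genes, 58 other genes were in the files and 20 were tested, of which 5 were called lower, 1 higher and 14 not, beside 21.3% lower and 21.0% higher over all genes tested. Around STEAP1 and STEAP2, CFAP69 was at a log2 fold change of 0.83 (adjusted p = 0.0105, under the limit of 2-fold) and GTPBP10 at -0.41 (adjusted p = 0.0946). Beside STEAP4, SRI was at 0.98 (adjusted p = 5.16e-04), also under the limit, and ADAM22 at -0.64. Beside CD276, NPTN was at -0.84 (adjusted p = 9.66e-04, under the limit) and INSYN1 was called lower (-1.31, adjusted p = 0.00361, edgeR). Near HPN, FXYD3 and ZNF792 were called lower (-1.23 and -1.13, adjusted p = 0.0465 and 0.0361, edgeR). ENSG00000271032, a long noncoding RNA near HPN with 0 and 5 fragments under vehicle and 39 and 20 with CPI-455, was the one called higher. Near PSCA, THEM6 (-1.76) and the noncoding LNCOC1 (-3.57) were called lower (edgeR adjusted p = 1.11e-04 and 1.49e-04).

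The genes whose levels over the 4 libraries lay nearest to those of each target were found from the Euclidean distance of centred log2 CPM, on a scale where 0 means the same pattern. The nearest to FOLH1 was SLC10A3 (distance 0.06 among 4686 genes compared), to STEAP2 SLC12A2 (0.06 among 5203), to CD276 CCDC85C (0.06 among 4356), to STEAP1 RASSF5 (0.10 among 4076) and to HPN TCEAL3 (0.10 among 3551). STEAP4 lay nearest to PTGER4, which also had no fragment with CPI-455. PSCA and LGR6 happened to have the same 4 counts. With 4 libraries in 2 groups these patterns hold little beyond the difference between groups, and many genes can lie near any of them.

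**Figure D5:**
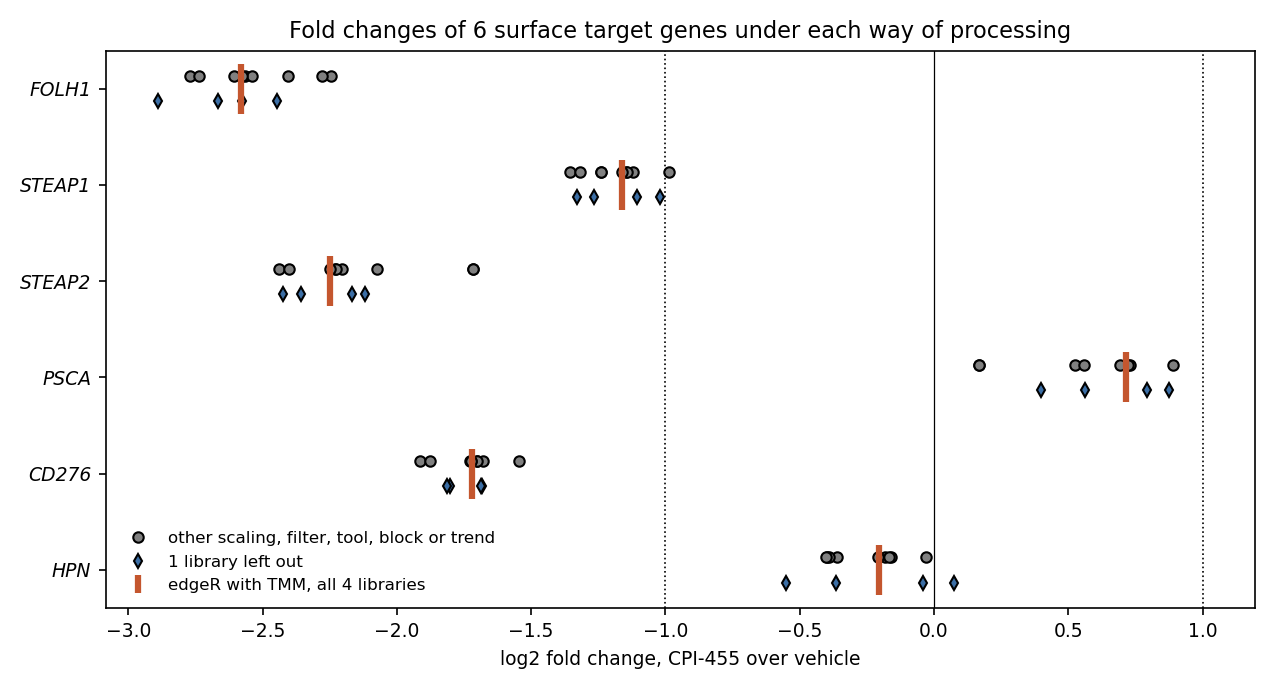
Log2 fold change, CPI-455 over vehicle (horizontal axis), of 6 surface target genes under each way of processing; bars are edgeR with all 4 libraries, circles other scalings, filters or tools, and diamonds fits without 1 library, with dotted lines at 2-fold. FOLH1, STEAP2 and CD276 stay beyond the lower line in every setting, STEAP1 is at -0.99 with upper-quartile scaling, and HPN crosses 0 in 1 fit.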

How the data were processed

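RNA from 4 LNCaP cultures was sequenced. Per the study's methods and the labels, the authors trimmed reads with Trim Galore, aligned them with STAR to GRCh38 and counted fragments per gene with featureCounts (1.5.0-p1, per the file headers) against Ensembl release 83, without strand and leaving out reads that map to several places or genes. The deposited values are raw counts per gene and library; library type is not given in the sources used here. Counts were tested with edgeR (4.0.16, R 4.3.3): TMM scaling, filterByExpr, quasi-likelihood fit over the 2 groups, Benjamini-Hochberg adjustment over all 17600 genes tested, calls at adjusted p under 0.05 and at least 2-fold. RPKM used exon length and TMM-scaled totals. Ratios within libraries were compared by an exact permutation test (scipy 1.17.1). The script was tested on simulated counts in which few genes changed, so the calls were not tested under a change as broad as the one seen here. Promoter windows came from RefSeq (GRCh38.p14), cut to the 250 bases upstream. Alternatives were DESeq2 (1.42.0), other scalings and filters, glmTreat, a replicate block, a length and GC trend (mgcv 1.9.3) and each library left out. The members and lists were chosen with earlier results of these data known. Genes were named by rule: the 7; up to 3 called genes per direction and list with the largest change at a mean log2 CPM of at least 3; close relatives whatever their values; tested neighbours; and the nearest gene in pattern. Some genes are not reported here. Others were named after their values were seen. The labels do not say whether same-numbered libraries were paired. These did not deviate together (r = 0.04 across genes), which does not settle the matter, and numbers were not used as pairs in the main fit.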

Additional observations from a re-analysis of the deposited data

How the results depend on the processing

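FOLH1, STEAP2 and CD276 kept their direction and their call in every setting run. The number of the 7 genes called lower was 5 in most settings. It was 4 with upper-quartile scaling, where STEAP1 was at -0.99, 4 with a minimum of 10 counts in every library, which left STEAP4 and PSCA untested, and 4 with glmTreat, where STEAP1 was not called. Over all genes glmTreat called 2455 higher and 2350 lower, beside 3698 and 3756 in edgeR. With 1 library left out, the log2 fold changes ran from -2.89 to -2.45 for FOLH1, -1.33 to -1.02 for STEAP1, -2.42 to -2.12 for STEAP2, -8.14 to -7.47 for STEAP4 (fitted values that depend on the prior count), 0.40 to 0.88 for PSCA, -1.81 to -1.68 for CD276 and -0.55 to 0.07 for HPN. HPN turned to 0.0748 without CPI-455 replicate 1, and in such fits the lone library is assumed to vary like the other group. Calls over all genes then ran from 2493 to 4085 higher and 3084 to 4512 lower. Removing the length and GC trend moved STEAP2 to -1.72 and PSCA to 0.17. A replicate block, with numbers that are not known to pair the samples, called 3422 higher and 3745 lower and the same 5 of the 7 genes. Scaling by library totals, by the upper quartile and the fit without a filter shifted single genes by a median of -0.19, 0.18 and -0.16. These are log2 shifts over the genes shared with the main fit. The median log2 fold change over all genes in the fit without a filter was -0.41, beside -0.04 in the main fit. At the depth of the CPI-455 libraries, STEAP4 gives a bound and PSCA a wide interval.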
